A study of Mus musculus with 53 samples.

Results

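The transcripts described here are 8 genes known for the mast cell, chosen by their symbols, and all 8 were found among the 49568 genes listed for each sample. They are Cpa3, Cma1, Mcpt4 and Tpsb2, which encode proteases of the granule, Kit, the FcεRI subunits β (Ms4a2) and α (Fcer1a), and histidine decarboxylase (Hdc), the enzyme that makes histamine. Mast cells are long-lived immune cells of connective tissue that sit beside blood vessels and nerve fibres, and in peripheral nerve they are found in the endoneurium, among the axons, as well as in the surrounding sheath. They store histamine, heparin and proteases in granules and release them when antigen crosslinks immunoglobulin E on the high-affinity receptor FcεRI or when other receptors, such as Mrgprb2, are engaged. Growth and survival of these cells depend on Kit, the receptor for stem cell factor. Connective tissue mast cells of the mouse are known for carboxypeptidase A3 (Cpa3), the chymases mast cell protease 5 (Cma1) and 4 (Mcpt4) and the tryptase mast cell protease 6 (Tpsb2).

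The samples were 53 RNA-seq libraries of sciatic nerve (SCN) from male C57BL/6J mice in 8 groups. Standard diet (SD) mice were given a low-fat control diet throughout, whose stated fat content differs between the sources used here, and were taken at 16 weeks of age (n = 5) or 24 weeks (n = 8). High-fat diet (HFD) mice, a model of prediabetes, were fed 60% of kcal from fat from 5 weeks of age and taken at 16 weeks (n = 7) or 24 weeks (n = 7). HFD-STZ mice, a model of type 2 diabetes, had the same diet and at 12 weeks of age received streptozotocin (STZ), a toxin of the pancreatic β cell, at 75 mg/kg and then 50 mg/kg 3 days later; they were taken at 16 weeks (n = 5) or 24 weeks (n = 8). In the dietary reversal (DR) groups, HFD-fed mice without STZ (HFD-DR, n = 7) or with it (HFD-STZ-DR, n = 6) were moved to the control diet at 16 weeks for 8 weeks and taken at 24 weeks. No group carried a transgene. No separation of the nerve into its parts is stated. Mast cells of the endoneurium, of the sheath and of any attached tissue could therefore not be told apart. The labels do not state litter, cage or cohort, or that each library came from a separate mouse, and p-values therefore measure the spread between these samples, which may be partly technical.

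The sequences upstream of 5 of these genes are shown first, 3 proteases and both FcεRI subunits, because these transcripts varied together from nerve to nerve. They are the 250 bases before the annotated start, on the gene's own strand, from RefSeq on GRCm38.p6. Cpa3 lay at chr3:20242182-20242431 on the minus strand, Cma1 at chr14:55944676-55944925 (minus) and Mcpt4 at chr14:56062311-56062560 (minus). Ms4a2 lay at chr19:11623720-11623969 (minus) and Fcer1a at chr1:173227230-173227479 (minus). Capitals mark AGATAA or AGATAG, and likewise TGATAA or TGATAG, on either strand, which are forms of the site bound by GATA factors such as Gata2, a factor that mast cells need.
Cpa3: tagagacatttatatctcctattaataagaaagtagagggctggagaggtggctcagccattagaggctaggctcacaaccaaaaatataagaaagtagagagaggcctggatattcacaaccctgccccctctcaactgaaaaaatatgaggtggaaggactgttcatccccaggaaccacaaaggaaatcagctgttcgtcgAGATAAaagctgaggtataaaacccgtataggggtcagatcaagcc
Cma1: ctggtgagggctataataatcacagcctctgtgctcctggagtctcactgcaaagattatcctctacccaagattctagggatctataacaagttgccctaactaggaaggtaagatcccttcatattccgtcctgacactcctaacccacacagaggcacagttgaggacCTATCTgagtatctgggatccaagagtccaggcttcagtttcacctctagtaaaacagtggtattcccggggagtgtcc
Mcpt4: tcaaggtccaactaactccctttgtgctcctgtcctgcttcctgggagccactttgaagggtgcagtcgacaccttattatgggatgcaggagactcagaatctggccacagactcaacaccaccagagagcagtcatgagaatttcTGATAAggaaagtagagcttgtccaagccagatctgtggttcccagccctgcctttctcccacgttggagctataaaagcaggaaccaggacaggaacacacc
Ms4a2: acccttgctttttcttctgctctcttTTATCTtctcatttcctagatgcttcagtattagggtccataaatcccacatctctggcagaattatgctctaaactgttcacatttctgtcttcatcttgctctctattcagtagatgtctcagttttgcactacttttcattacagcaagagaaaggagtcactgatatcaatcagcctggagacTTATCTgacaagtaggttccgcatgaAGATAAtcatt
Fcer1a: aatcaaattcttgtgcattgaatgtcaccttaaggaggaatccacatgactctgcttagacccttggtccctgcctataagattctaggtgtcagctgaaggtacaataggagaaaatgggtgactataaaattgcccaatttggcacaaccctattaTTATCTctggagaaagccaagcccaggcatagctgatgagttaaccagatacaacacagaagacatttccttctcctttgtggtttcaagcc
Promoter entries were found for 7 of the 8 genes. At least 1 of the 4 words was present in 6 of these 7, once in Cpa3, Cma1, Mcpt4, Fcer1a and Hdc and 3 times in Ms4a2, and in 27.1% of the 27025 promoters of the same length. Kit has 2 entries, and the first, used here, held none. The E-box forms TCATGTG or TCACGTG, on either strand, which Mitf can bind, were present in Fcer1a alone among the 7 and in 6.26% of all promoters. These matches describe letters, not binding. Cma1 (chr14:55941451-55944675) and Mcpt4 (chr14:56059629-56062313) belong to one cluster of mast cell protease genes on chromosome 14 (GRCm38). The other genes lie apart, Cpa3 at chr3:20215620-20242181, Tpsb2 at chr17:25366305-25369098, Kit at chr5:75574916-75656722, Ms4a2 at chr19:11615523-11623719, Fcer1a at chr1:173221284-173227214 and Hdc at chr2:126593667-126619299. Among all stretches of 100 bases in the longest coding transcript of each gene, none was found in a transcript of another gene for Cpa3, Cma1, Tpsb2, Kit, Fcer1a and Hdc. The share was 0.0991% for Mcpt4, with Cma2, and 0.567% for Ms4a2, with Ms4a4b.

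Values are log2 as deposited, and whether they were scaled by gene length is not stated for these files, so levels are compared between samples and not between genes. Fits of 2 groups used genes with a mean of at least 3.32 (log2 of 10), and all 8 mast cell genes passed in each of the 14 comparisons. The lowest and highest values over the 53 nerves were 4.90 and 10.51 for Cpa3, 4.91 and 10.41 for Cma1, 5.42 and 10.14 for Mcpt4 and 5.94 and 11.07 for Tpsb2. Kit ran from 7.42 to 10.38, Ms4a2 from 3.31 to 6.23, Fcer1a from 3.28 to 6.59 and Hdc from 4.01 to 7.09. The files hold no counts, so the depth of each library could not be computed from them. The tissue label was checked against Schwann cell genes, and the mean of 5 (Mbp, Pmp22, Prx, Sox10 and S100b) lay between 17.01 and 17.93 in every sample. Genes of skeletal muscle (6 genes, mean 6.58 to 17.29) and fat (6 genes, 8.43 to 13.48) differed widely between nerves. The list of 4 basophil genes, of cells that also carry FcεRI, had a mean of 3.38 to 5.26. Its defining protease Mcpt8 averaged 1.57 and never passed 3.28, and was the only gene of that list under the minimum. Of the 5 melanocyte genes, marking cells that also need Kit, Pmel and Tyrp1 passed the minimum of 3.32 and were tested. Tyr, Dct and Mlana averaged between 2.16 and 2.41, and the list mean ran from 2.96 to 4.06.

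A few libraries matter for what follows. HFD-STZ 24-week replicate 7 had the lowest median correlation with the other libraries, 0.941, against 0.954 for the next. It also had the highest Kit value of all 53 (10.38) with a low Hdc (4.25). SD 16-week replicate 1 had the lowest value of the series for the 4 proteases, Ms4a2 and Fcer1a (Cpa3 4.90, Fcer1a 3.28), and its fat gene mean, 8.43, was also the lowest. HFD-STZ-DR replicate 2 was low in the proteases (Cpa3 6.64) and in fat genes (8.84). Values without these libraries are given beside several of the results below.

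**Figure D1:**
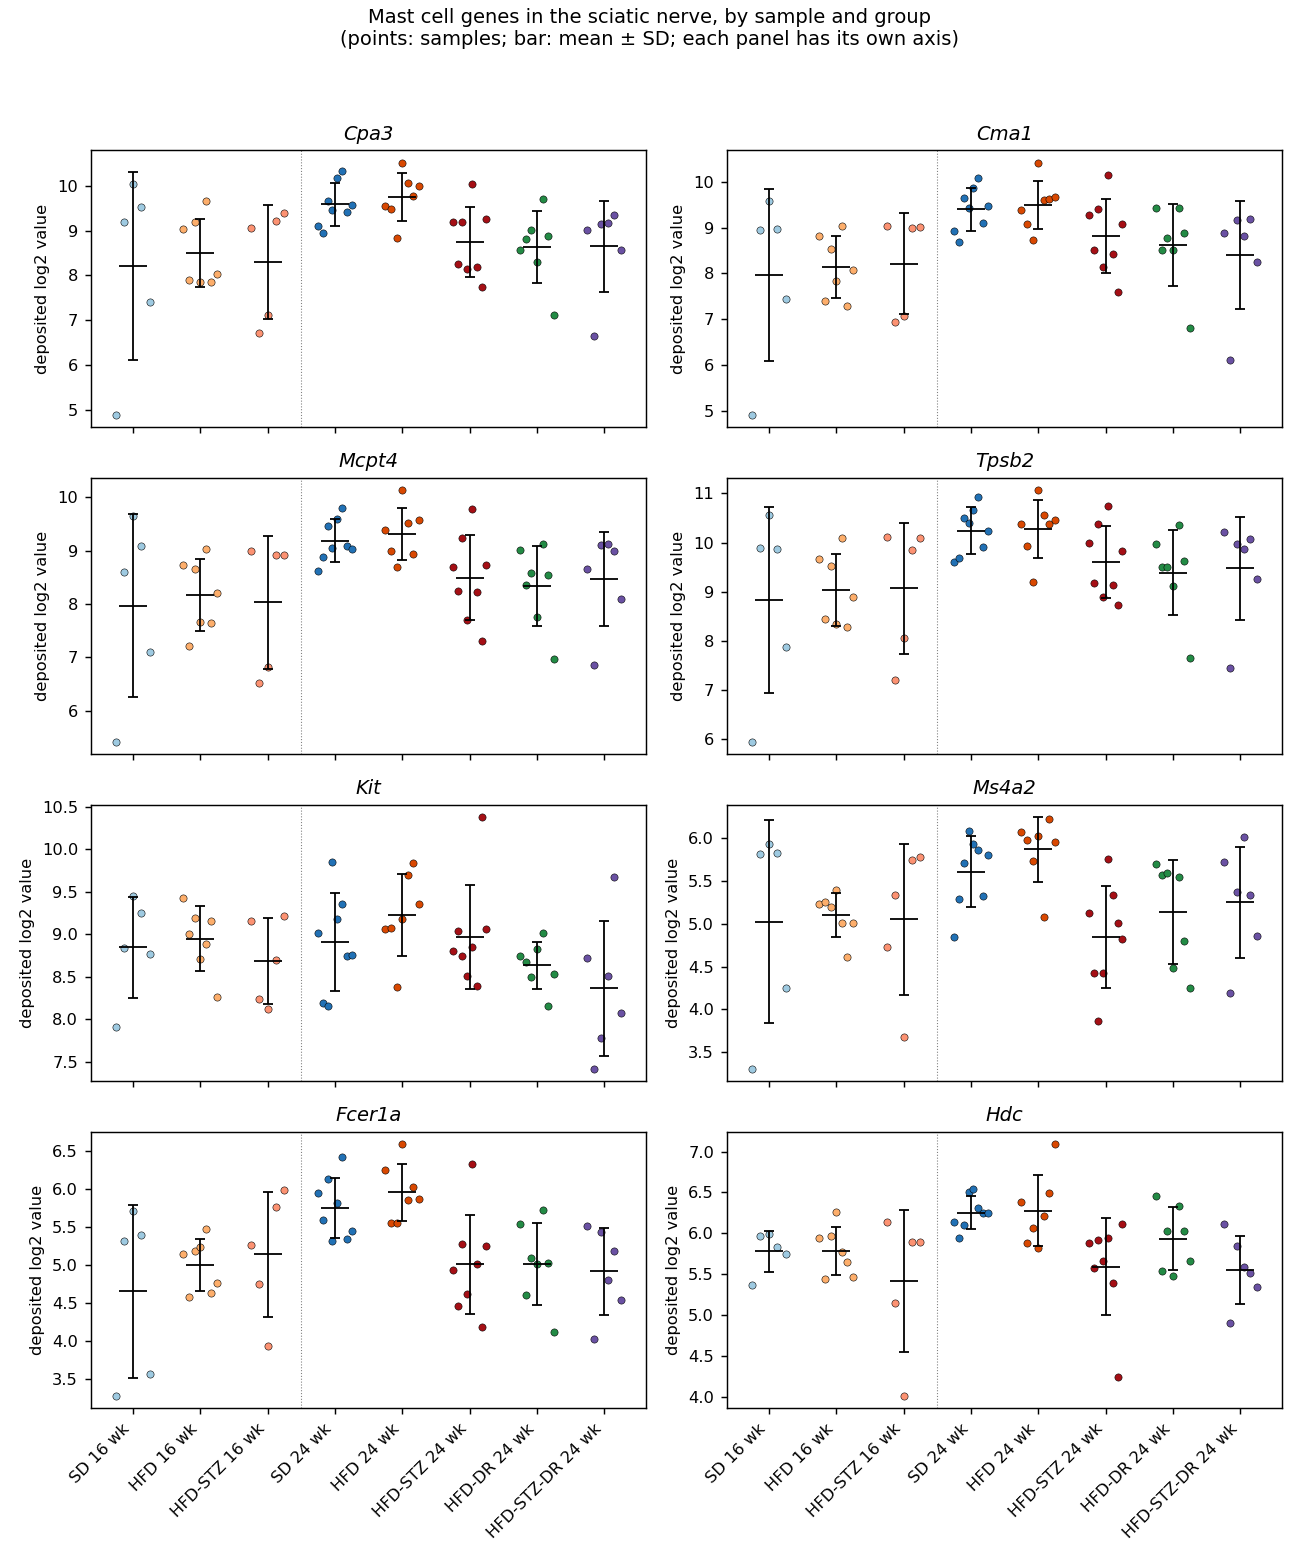
Deposited log2 value of each mast cell gene (y axis, 1 panel per gene, each with its own range) in each of the 53 sciatic nerves, by group (x axis); points are samples and the bar is the group mean ± SD. At 24 weeks Cpa3 averaged 9.58 in SD and 9.74 in HFD nerves and 8.63 to 8.75 in the other 3 groups, and SD 16-week replicate 1 lies far below its group in the protease panels.

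At 24 weeks no difference in mast cell transcripts was detectable between HFD and SD nerves. Cpa3, which trims peptides in the granule, had a lowest, median and highest value of 8.94, 9.51 and 10.33 in the 8 SD nerves and of 8.83, 9.78 and 10.51 in the 7 HFD nerves. The groups overlapped across nearly their whole ranges. HFD minus SD differences ran from 0.02 for Hdc to 0.32 for Kit, with a median of 0.15 over the 8 genes beside 0.0077 over all genes tested. None of the 8 passed after adjustment, where 22 of 18191 genes (0.121%) did, or reached an unadjusted p under 0.05 in limma, where 9.05% of genes did, and the exact 2-sided permutation p of single genes ran from 0.229 to 0.901. The 95% interval of the Cpa3 difference was −0.34 to 0.66 and that of Fcer1a −0.21 to 0.63.

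When STZ was added to the HFD, mean levels at 24 weeks were lower for 7 of the 8 genes than in SD, by 0.58 to 0.83, and Kit was the exception. After adjustment over all genes none of these differences passed (limma, Benjamini-Hochberg, smallest adjusted p = 0.747), in a comparison where 6 of 17846 genes (0.0336%) did. At an unadjusted p under 0.05, 6 of the 8 were lower (Cpa3, Mcpt4, Tpsb2, Ms4a2, Fcer1a and Hdc) and none higher, beside 2.69% of all genes lower. The 8 genes varied together from nerve to nerve, as given below, so counts of them here and below are not counts of independent results. In bulk tissue, fewer mast cells and less RNA of these genes per cell cannot be told apart, here and below.

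Among the proteases, Cpa3 in HFD-STZ nerves had a lowest, median and highest value of 7.74, 8.72 and 10.04. Of the 8 nerves, 4 lay below every SD nerve and 7 below the SD median. The difference from SD was −0.83 (SE 0.30, 95% interval −1.46 to −0.20, exact permutation p = 0.0235). Mcpt4, a chymase that cuts extracellular matrix proteins, differed by −0.70 (exact permutation p = 0.0435), Tpsb2 by −0.63 (exact permutation p = 0.0611) and Cma1 by −0.58 (exact permutation p = 0.102). For each of these 3, as for Cpa3, 4 of the 8 HFD-STZ nerves lay below all SD nerves. The receptor Kit did not follow: it had 8.40, 8.83 and 10.38 as lowest, median and highest value in HFD-STZ nerves against 8.16, 8.88 and 9.86 in SD nerves. Its difference was 0.07, and −0.14 without HFD-STZ replicate 7.

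The 2 FcεRI subunits lay lower in HFD-STZ nerves. Fcer1a, which binds immunoglobulin E, ran from 5.32 through a median of 5.71 to 6.42 in SD nerves and from 4.19 through 4.98 to 6.33 in HFD-STZ nerves. In 7 of the 8 HFD-STZ nerves it was below every SD nerve, and replicate 5, at 6.33, was near the top of the SD range. The difference was −0.74 (SE 0.26, exact permutation p = 0.0171). Ms4a2, which amplifies the receptor's signal, ran from 4.84 through 5.76 to 6.09 in SD nerves and from 3.86 through 4.92 to 5.76 in HFD-STZ nerves. Its difference was −0.76 (SE 0.25, exact permutation p = 0.0118), and all 8 HFD-STZ nerves lay below the SD median. Hdc ran from 5.95 through 6.25 to 6.55 in SD and from 4.25 through 5.77 to 6.12 in HFD-STZ nerves, with 6 of 8 below all SD nerves. The difference, −0.66 (SE 0.22), had an exact permutation p of 0.000777, unadjusted, and an adjusted p of 0.747 in limma. Without HFD-STZ replicate 7 it was −0.47, that of Cpa3 −0.68 and that of Fcer1a −0.63, and 4 genes in place of 6 reached an unadjusted p under 0.05.

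HFD-STZ was also compared with HFD at the same age, which asks about STZ on a common diet; this comparison shares its HFD-STZ nerves with the one above. All 8 differences were below 0, from −1.02 for Ms4a2 to −0.25 for Kit. None passed after adjustment (limma, smallest adjusted p = 0.785; 0 of 18117 genes did, and 1013 reached an unadjusted p under 0.05). At an unadjusted p under 0.05, 6 of the 8 were lower and none higher, beside 4.17% of genes lower. Ms4a2 ran from 5.08 through 5.98 to 6.23 in HFD nerves, and 5 of the 8 HFD-STZ nerves were below all of them (exact permutation p = 0.0028). Fcer1a ran from 5.56 through 5.87 to 6.59 in HFD nerves, and 7 of the 8 HFD-STZ nerves lay below all of them. Its difference was −0.95 (SE 0.27, exact permutation p = 0.00653), and −0.83 without HFD-STZ replicate 7.

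**Figure D2:**
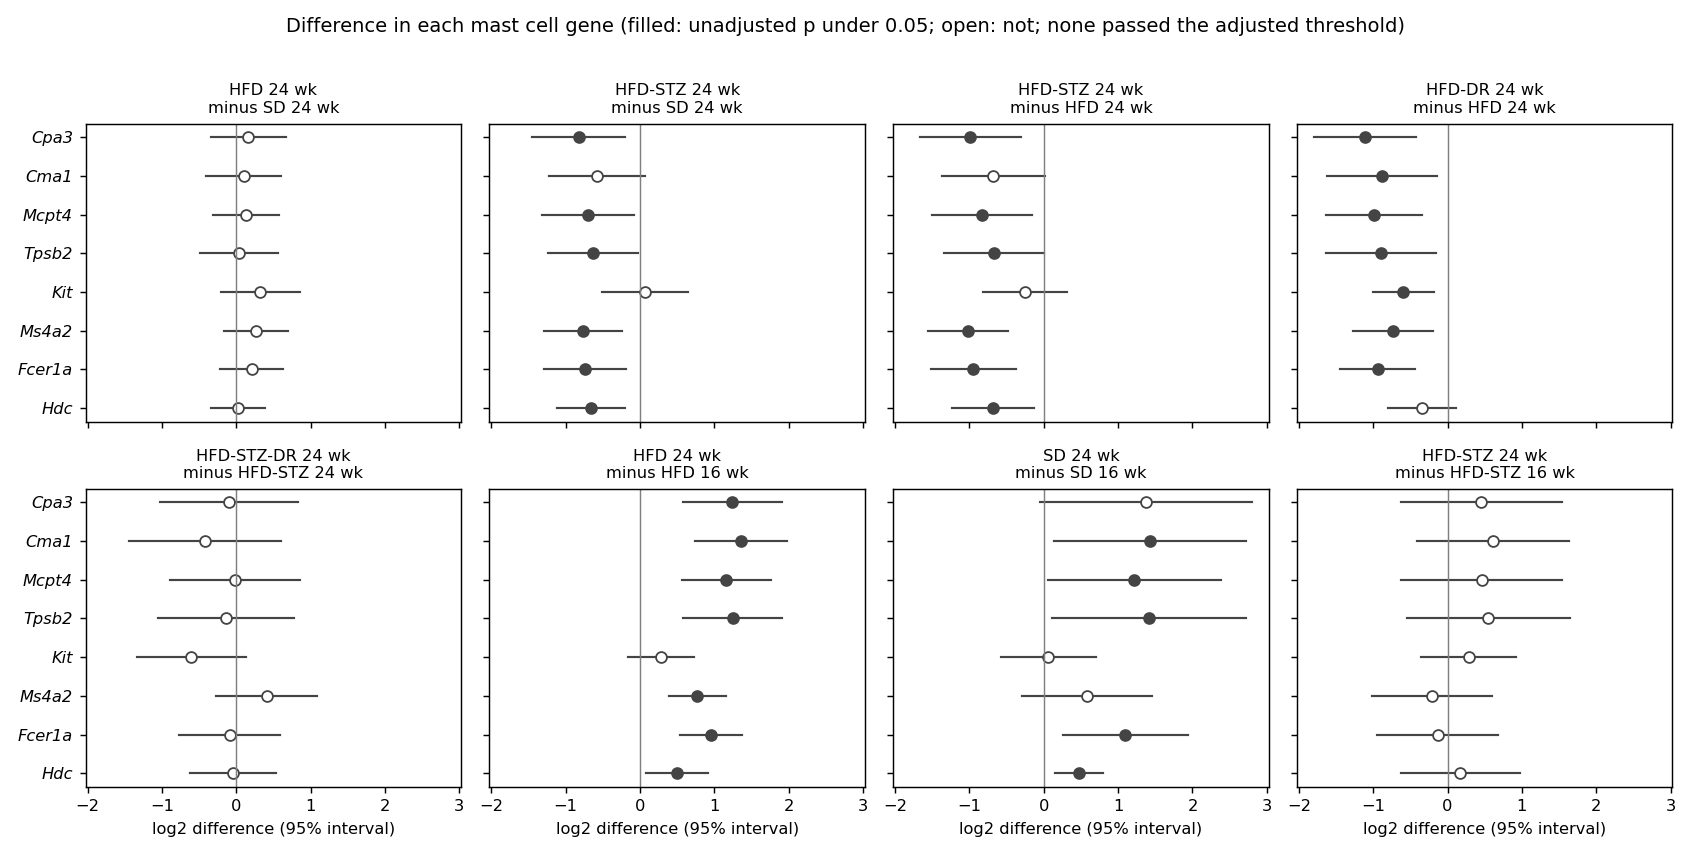
Difference in deposited log2 value (x axis) of each mast cell gene (y axis) in 8 comparisons, with its 95% interval from limma; filled points have an unadjusted p under 0.05 and open points do not. All intervals of HFD minus SD at 24 weeks span 0. The point estimates of HFD-STZ minus SD lie below 0 for all genes but Kit. Those of HFD at 24 minus 16 weeks lie above 0 for all 8, from 0.28 for Kit to 1.36 for Cma1. Intervals of open points span 0.

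After dietary reversal without STZ, mean levels of all 8 genes were lower than in mice kept on the HFD. The differences of HFD-DR from HFD had a median of −0.89, beside −0.0019 over all genes. None passed after adjustment (limma, smallest adjusted p = 0.351, where 2 of 18475 genes, 0.0108%, passed). At an unadjusted p under 0.05, 7 of the 8 were lower, beside 4.57% of all genes. Cpa3 in HFD-DR nerves ran from 7.12 through 8.81 to 9.71, and all 7 lay below the HFD median of 9.78. Its difference was −1.11 (SE 0.32, 95% interval −1.80 to −0.43, exact permutation p = 0.00758). Mcpt4 differed by −0.98 (exact permutation p = 0.00932), with 5 of 7 HFD-DR nerves below all HFD nerves.

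Fcer1a ran from 4.12 through 5.03 to 5.73 in HFD-DR nerves, and 6 of the 7 were below the lowest HFD nerve at 5.56. The difference was −0.94 (SE 0.24, exact permutation p = 0.00233). Kit, lower by 0.59 on average, ran from 8.16 through 8.67 to 9.01 in HFD-DR and from 8.39 through 9.18 to 9.84 in HFD nerves (exact permutation p = 0.0163). Hdc showed the smallest difference, −0.34 (95% interval −0.79 to 0.11, exact permutation p = 0.142). Without HFD-DR replicate 7, whose Cpa3 (7.12) and Cma1 (6.80) were the lowest of the group, the median difference over the 8 genes was −0.60 and that of Cma1 −0.58, and 7 genes again reached an unadjusted p under 0.05.

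HFD-DR nerves were compared with SD nerves of the same age as well. Differences were between −0.95 (Cpa3) and −0.27 (Kit), 5 of the 8 had an unadjusted p under 0.05 in the lower direction beside 1.43% of genes, and the smallest adjusted p was 0.925 (limma, with 0 of 18145 genes past it and 933 at an unadjusted p under 0.05). Cpa3 differed by −0.95 (SE 0.30, exact permutation p = 0.00855), and 5 of the 7 HFD-DR nerves were below all SD nerves.

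After STZ, no difference was detectable between nerves with and without dietary reversal in the fit without covariates. Differences of HFD-STZ-DR from HFD-STZ ran from −0.61 for Kit to 0.41 for Ms4a2 with a median of −0.10, and none passed after adjustment (15 of 17862 genes, 0.084%, did) or had an unadjusted p under 0.05, as 6.48% of genes had. Cpa3 in HFD-STZ-DR nerves ran from 6.64 through 9.09 to 9.34, within the HFD-STZ range but for replicate 2. The 95% interval of its difference was −1.03 to 0.82, and without HFD-STZ-DR replicate 2 the difference was 0.30 and the median over the 8 genes 0.18. Of the 6 fat genes 5 were lower after reversal in these nerves at an unadjusted p under 0.05, beside 4.51% of all genes (Adipoq −2.30, unadjusted p = 0.00049). With the mean of the 6 fat genes as a covariate the Cpa3 difference was 1.15 (SE 0.36, unadjusted p = 0.00678, adjusted p = 0.338, limma), the median over the 8 genes was 0.85, and Cpa3, Cma1, Mcpt4, Tpsb2 and Hdc were higher at an unadjusted p under 0.05 and none past adjustment. A test of the difference between both reversal effects gave 1.14 for Ms4a2 (SE 0.42, unadjusted p = 0.0108 in limma). It gave 0.85 for Fcer1a (unadjusted p = 0.0462 in limma) and 1.01 for Cpa3 (unadjusted p = 0.0857 in limma). After adjustment 0 of 18161 genes passed that test, while 310 (1.71%) reached an unadjusted p under 0.05, so the reversal effects were not shown to differ. Without HFD-STZ-DR replicate 2 the values were 1.35 for Ms4a2, 1.03 for Fcer1a and 1.41 for Cpa3, 5 of the 8 genes in place of 2 reached an unadjusted p under 0.05, and the smallest adjusted p was 1.00.

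Against SD at 24 weeks, HFD-STZ-DR nerves had lower means for all 8 genes, with a median difference of −0.74. The smallest adjusted p was 0.313 (limma, for Hdc), and 0 of 17889 genes passed while 1639 were at an unadjusted p under 0.05. At an unadjusted p under 0.05, 5 of the 8 were lower, beside 4.67% of all genes. Hdc had a lowest, median and highest value of 4.90, 5.55 and 6.12 in HFD-STZ-DR nerves, 5 of the 6 lay below all SD nerves, and the difference was −0.70 (SE 0.17, exact permutation p = 0.000999). Without HFD-STZ-DR replicate 2 the differences were −0.57 for Hdc, −0.54 for Cma1 and −0.53 for Cpa3, and 4 genes in place of 5 reached that p. The means of fat and fibroblast genes were also lower in HFD-STZ-DR nerves. Each of the 6 fat genes had an unadjusted p under 0.05, while of the 4 fibroblast genes Dpt (−1.43, unadjusted p = 0.00134) did and Pdgfra (−0.40), Dcn (−0.26) and Col1a1 (−0.13) did not. With the fat gene mean as a covariate the median difference over the 8 genes was −0.05 in place of −0.74 and 1 gene reached that p, and with the fibroblast gene mean it was −0.08 and 0 did. With the fibroblast mean taken without Dpt it was −0.62 and 2 did. HFD-STZ-DR and HFD-DR nerves differed by −0.38 (Hdc) to 0.14 (Mcpt4), and 0 of the 8 reached an unadjusted p under 0.05 in limma, beside 3.58% of all genes. These values moved without HFD-STZ-DR replicate 2, to 0.46 for Mcpt4, from 0.02 to 0.42 for Cpa3 and from −0.22 to 0.24 for Cma1, with Hdc at −0.25.

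At 16 weeks neither HFD nor HFD-STZ went with a detectable difference from SD. The SD nerves held Cpa3 values of 4.90, 9.19, 10.03, 9.53 and 7.40, and the HFD-STZ nerves 9.07, 6.71, 7.12, 9.21 and 9.38. The 7 HFD nerves ran from 7.85 through 8.04 to 9.66. Spread within the SD and HFD-STZ groups was wide, with an SD of 2.10 and 1.28, against 0.48 in SD nerves at 24 weeks. In the 3 comparisons at this age 0 of the 8 genes passed after adjustment (1 of 17962 genes, 0.00557%, did for HFD minus SD and 0 for the others). None of the 8 reached an unadjusted p under 0.05, beside 8.55% of genes for HFD minus SD, 8.41% for HFD-STZ minus SD and 4.88% for HFD-STZ minus HFD. The Cpa3 difference of HFD from SD was 0.29, and −0.53 without SD replicate 1, with a 95% interval of −1.29 to 1.87 over all samples. Fcer1a held 3.28, 5.33, 5.71, 5.41 and 3.57 in SD nerves and 5.27, 4.76, 3.94, 5.76 and 5.99 in HFD-STZ nerves.

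Age was examined within each diet, and the HFD nerves at 24 weeks are the same ones that served the reversal comparison. In HFD nerves, mean levels at 24 weeks exceeded those at 16 weeks for all 8 genes, by 0.28 (Kit) to 1.36 (Cma1), with a median of 1.06 beside 0.017 over all genes. None passed after adjustment (limma, smallest adjusted p = 0.128 for Fcer1a), where 12 of 18360 genes (0.0654%) did. At an unadjusted p under 0.05, 7 of 8 were higher, beside 2.68% of all genes. Fcer1a ran from 4.58 through 5.15 to 5.48 at 16 weeks and from 5.56 to 6.59 at 24 weeks, so the groups did not overlap, as for 0.0272% of genes in this direction. The difference was 0.96 (SE 0.19, 95% interval 0.54 to 1.37, exact permutation p = 0.000583). Cma1 ran from 7.29 through 8.07 to 9.04 at 16 weeks and from 8.72 through 9.60 to 10.41 at 24 weeks, a difference of 1.36 (SE 0.29, exact permutation p = 0.00233). The mean over the 5 Schwann cell genes was lower at the later age in the same nerves, 17.60 at 16 weeks and 17.38 at 24 weeks. With that mean as a covariate the Fcer1a difference was 0.69 (unadjusted p = 0.00419) and that of Cpa3 1.01 (unadjusted p = 0.0154).

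In SD nerves the 24-week means were also above those at 16 weeks, from 0.06 for Kit to 1.43 for Cma1, and none passed after adjustment (limma, smallest adjusted p = 0.399, with 0 of 17788 genes past it and 1862 at an unadjusted p under 0.05). At an unadjusted p under 0.05, 5 of the 8 were higher (Cma1, Mcpt4, Tpsb2, Fcer1a and Hdc), beside 5.43% of all genes. SD replicate 1 at 16 weeks weighed on this: without it 1 gene reached an unadjusted p under 0.05, the Cpa3 difference was 0.54 in place of 1.37 and that of Fcer1a 0.75 in place of 1.10. Without SD replicate 5 at 16 weeks, 1 gene did so too. Hdc, with 5.37, 5.97, 5.99, 5.83 and 5.75 at 16 weeks, was above all of these in 7 of the 8 nerves at 24 weeks and differed by 0.47 (SE 0.15, exact permutation p = 0.00311). Fat genes were higher with age in SD nerves as well, with a group mean of 10.56 at 16 weeks and 12.23 at 24 weeks, and with them as a covariate 1 of the 8 mast cell genes had an unadjusted p under 0.05. Their part in the result was not tested further.

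In HFD-STZ nerves no gene reached an unadjusted p under 0.05 between 16 and 24 weeks, beside 12.5% of the 17963 genes tested, and differences ran from −0.21 for Ms4a2 to 0.61 for Cma1. The effect of HFD-STZ against SD was then compared between ages. Fcer1a gave −1.23 (SE 0.57, unadjusted p = 0.0403, adjusted p = 0.756, limma), with 4.68% of genes under that unadjusted p, and the other 7 genes did not reach it. Without SD 16-week replicate 1 it was −0.89, and 0 of the 8 reached that p. For HFD against SD, no mast cell gene reached it, beside 1.67% of all genes.

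Ordered by mean, HFD at 24 weeks stood first for all 8 genes, and SD at 24 weeks second for all but Kit. The last place was held by SD at 16 weeks for the 4 proteases and Fcer1a, by HFD-STZ at 24 weeks for Ms4a2, by HFD-STZ at 16 weeks for Hdc and by HFD-STZ-DR for Kit. Of the 56 pairs of neighbours in these orders, 2 had an exact permutation p under 0.05, with no adjustment over the 56: SD and HFD-STZ at 24 weeks for Cpa3 (0.828, p = 0.0235) and for Mcpt4 (0.699, p = 0.0435). The other 54 did not reach it. Group accounted for 18.9% of the sum of squares of Kit, for 24.0% to 26.8% in Ms4a2 and the 4 proteases, for 33.2% in Hdc and for 35.2% in Fcer1a. Any split into 8 groups gives each gene some share, and these shares were not tested against that. Most of the variation of each gene lay within groups.

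The mast cell genes moved together from nerve to nerve within groups. With group means subtracted, the 6 pairs of Cpa3, Cma1, Mcpt4 and Tpsb2 had Pearson r of 0.962 to 0.978 and Spearman rho of 0.945 to 0.982 over the 53 samples. Each had a permutation p of 1e-05, the smallest that 100000 permutations can give, among 28 pairs computed. Leaving out the 2 samples farthest from the median on the first gene, the lowest r of the 6 was 0.951. Libraries come in 8 runs of consecutive numbers, and not every run holds every group. Runs 6 and 8 hold no 16-week sample, so run and age are partly mixed, and the age comparisons above had no term for run. With run means also subtracted, the lowest r was 0.947. Run means made up 32.0% to 36.0% of the within-group variation of the proteases and Fcer1a. The share was 27.5% for Hdc, 19.0% for Ms4a2 and 12.8% for Kit. Any split into 8 runs gives some share, and these shares were not tested against that.

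**Figure D3:**
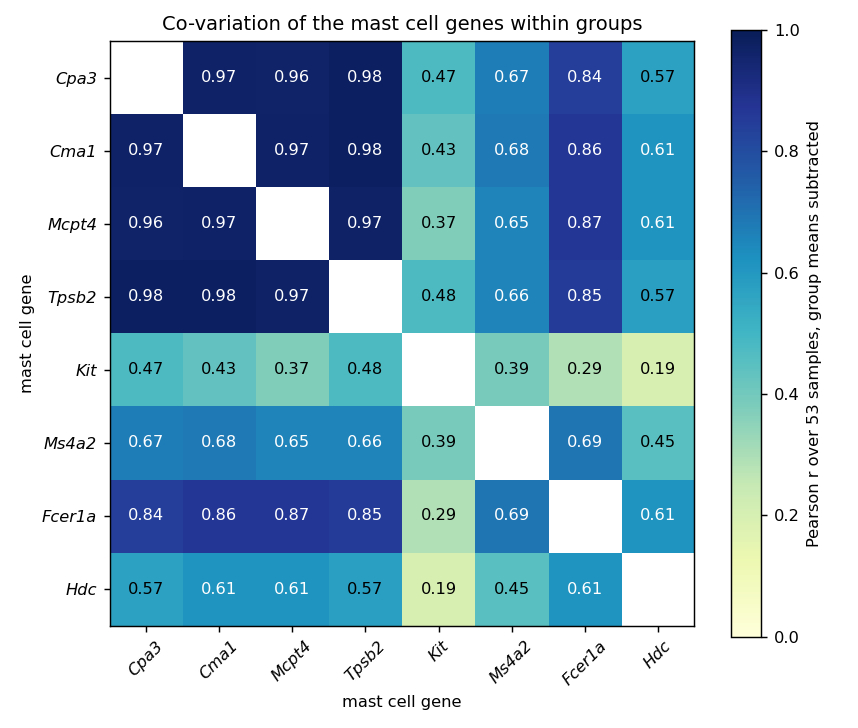
Pearson r between each pair of mast cell genes over 53 samples with group means subtracted (both axes: genes; colour and printed number: r). The 4 proteases form a block of 0.96 to 0.98, Fcer1a joins them at 0.84 to 0.87, and Kit has the lowest values, down to 0.19 with Hdc.

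Away from the proteases the relation loosened in steps. Fcer1a had r of 0.843 to 0.865 with the 4 proteases, Ms4a2 0.654 to 0.683 and Hdc 0.567 to 0.612. Kit had 0.373 to 0.476 with them and 0.195 with Hdc (rho 0.357; permutation p 0.160 for r and 0.00905 for rho; 0.16 and 0.00939 after Benjamini-Hochberg adjustment over the 28 pairs). For Kit and Hdc r was 0.496 when the 2 nerves with the most extreme Kit were left out, so the low value rested on them. With the same step, r of Kit with Cpa3 went from 0.474 to 0.348. Kit is also known in other cells, melanocytes and interstitial cells among them, and its range in these nerves, 2.96, was narrower than the 5.61 of Cpa3.

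All genes with a mean of at least 3.32 were ranked by r with the mean of the 4 proteases. Among 18061 genes other than the 8, 120 (0.664%) had r above 0.5, and the median was −0.0099. The closest was Mrgprb1 (r = 0.915), a receptor gene of the family that holds Mrgprb2, the mast cell receptor for cationic peptides and drugs, itself at rank 4 (0.774). Cyp11a1, which makes pregnenolone from cholesterol, was at rank 2 (0.831). Tph1 (0.792) and Slc6a4 (0.774), the serotonin-making enzyme and the serotonin transporter, were at ranks 3 and 5, and mouse mast cells are known to store serotonin. A530099J19Rik (0.700), Tpsab1 (0.693), the tryptase mast cell protease 7, Il1rl1 (0.647), the receptor for interleukin 33, and Tpsg1 (0.619), a tryptase anchored in the membrane, came next. The remaining 6 were Car3 (0.617), Cep85 (0.593), Sim2 (0.592), Mn1 (0.586), Ifi211 (0.576) and Pola2 (0.567). Car3 is abundant in fat and muscle, and its r was 0.474 without the 2 nerves farthest in the proteases, against 0.887 for Mrgprb1.

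Mrgprb1 had a mean of 7.09 ± 0.46 (SD, n = 8) in SD nerves and 7.16 ± 0.32 (n = 7) in HFD nerves at 24 weeks. It averaged 6.21 ± 0.77 (n = 8) in HFD-STZ, 6.33 ± 0.77 (n = 7) in HFD-DR and 6.34 ± 0.90 (n = 6) in HFD-STZ-DR nerves. The differences were −0.87 for HFD-STZ minus SD (unadjusted p = 0.0092, adjusted p = 0.795, limma) and −0.84 for HFD-DR minus HFD (unadjusted p = 0.011, adjusted p = 0.629). Tph1 was at 5.93 ± 0.36 in SD and 5.33 ± 0.41 in HFD-STZ nerves, a difference of −0.60 (unadjusted p = 0.00674, adjusted p = 0.747). In HFD nerves it was at 5.57 ± 0.37, between SD and HFD-STZ, in HFD-DR nerves at 5.30 ± 0.57 and in HFD-STZ-DR nerves at 5.55 ± 0.45.

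Other genes of the mast cell were counted by list, and no gene of any list passed after adjustment in any comparison. Of 6 other mast cell proteases, Tpsab1 and Tpsg1 passed the low-value filter. Mcpt1 and Mcpt2, proteases of mucosal mast cells, averaged 0.41 and −0.34, and Mcpt9 and Ctsg 0.84 and 2.91, all under the minimum. Tpsab1 differed by −0.62 between HFD-STZ and SD (SE 0.24, unadjusted p = 0.0208, adjusted p = 0.813, limma). It was also lower in HFD than in SD nerves at 24 weeks (−0.43, unadjusted p = 0.0725, limma). Its difference was −0.18 for HFD-STZ minus HFD (unadjusted p = 0.414) and 0.02 for HFD-DR minus HFD (unadjusted p = 0.917), both in limma. Tpsab1 thus did not follow the proteases described above in the reversal comparison. Of 6 other receptors 5 passed the filter, and in HFD-DR minus HFD 3 of them were lower at an unadjusted p under 0.05, beside the 4.57% of all genes lower: Mrgprb1 (−0.84), Fcer1g (−0.64), the shared signalling chain of Fc receptors that macrophages also carry, and Il1rl1 (−0.36). In HFD-STZ minus SD, 1 of the 5 was, beside 2.69% of genes. In HFD-STZ minus HFD 4 of the 5 were, beside 4.17% of genes, and these were named after their values were seen: Mrgprb1 (−0.95), Mrgprb2 (−0.72), Il1rl1 (−0.68) and Cd200r3 (−0.48).

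Genes of granule storage and mediator synthesis, 9 in all, were mixed. In HFD-DR minus HFD, 4 of the 9 were lower at an unadjusted p under 0.05, beside 4.57% of all genes, with Ltc4s, leukotriene C4 synthase, at −1.09, Hpgds, a prostaglandin D synthase, at −0.55 and Alox5ap, which presents arachidonate to 5-lipoxygenase, at −0.54. Ltc4s was 0.81 above SD in HFD nerves and 0.76 above SD in HFD-STZ nerves (unadjusted p = 0.0427 and 0.0344). Between HFD-STZ nerves with and without reversal it differed by −1.69 (adjusted p = 0.102, limma). Among transcription factors, Gata2 and Mitf passed the filter at 24 weeks and Gata1 did not, and neither reached an unadjusted p under 0.05 for HFD or HFD-STZ minus SD, HFD-STZ minus HFD or either reversal comparison.

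Signalling genes downstream of FcεRI and Kit, 8 of 9 above the filter, had 2 higher in HFD than in SD nerves at an unadjusted p under 0.05, beside 5.54% of all genes: the adaptors Lat2 (0.54) and Lat (0.46). In HFD-DR minus HFD, Syk (−0.64), Lat2 (−0.61) and Lat (−0.50) were lower at that p, as 4.57% of genes were. In HFD-STZ-DR minus HFD-STZ the adaptor Lcp2 was (−0.46), as were 4.51% of genes. Some macrophage genes were also lower in HFD-DR than in HFD nerves, as given below. Which cells carried the transcripts of signalling and mediator synthesis was not tested. Of 6 factors that grow or activate mast cells, 4 passed the filter, and Kitl, the ligand of Kit, and Il33 did not reach an unadjusted p under 0.05 in the same 5 comparisons. Tslp, an epithelial and stromal cytokine, differed by −0.61 between HFD-DR and HFD nerves (unadjusted p = 0.0275). Of 6 histamine receptors and histamine-degrading enzymes, Hrh1, Hrh2 and Hnmt passed the filter and none reached that p in those 5 comparisons.

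Cpa3 varied with markers of other cells. It was set against the mean of each of 12 cell type lists, within groups over 53 samples. It had r = 0.554 (rho 0.548) with 4 genes of nerve sheath fibroblasts (Pdgfra, Dpt, Col1a1, Dcn) and r = 0.532 (rho 0.447) with 6 genes of adipocytes (Adipoq, Plin1, Cidec, Cfd, Retn, Lipe). Their permutation p for r was 4e-05 and 3e-05, and 0.00024 for both after Benjamini-Hochberg adjustment over 12 lists. Without the 2 nerves farthest in Cpa3, r was 0.507 and 0.404, and with run means subtracted 0.439 and 0.464. Macrophage (0.428), perineurial (0.423), T cell (0.394) and endothelial genes (0.380) followed, and Schwann cell genes ran opposite (−0.344; adjusted permutation p = 0.0199). Basophil (0.116), eosinophil (−0.176), neutrophil (−0.0692), melanocyte (−0.0627) and muscle genes (0.204) had adjusted permutation p between 0.216 and 0.654.

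**Figure D4:**
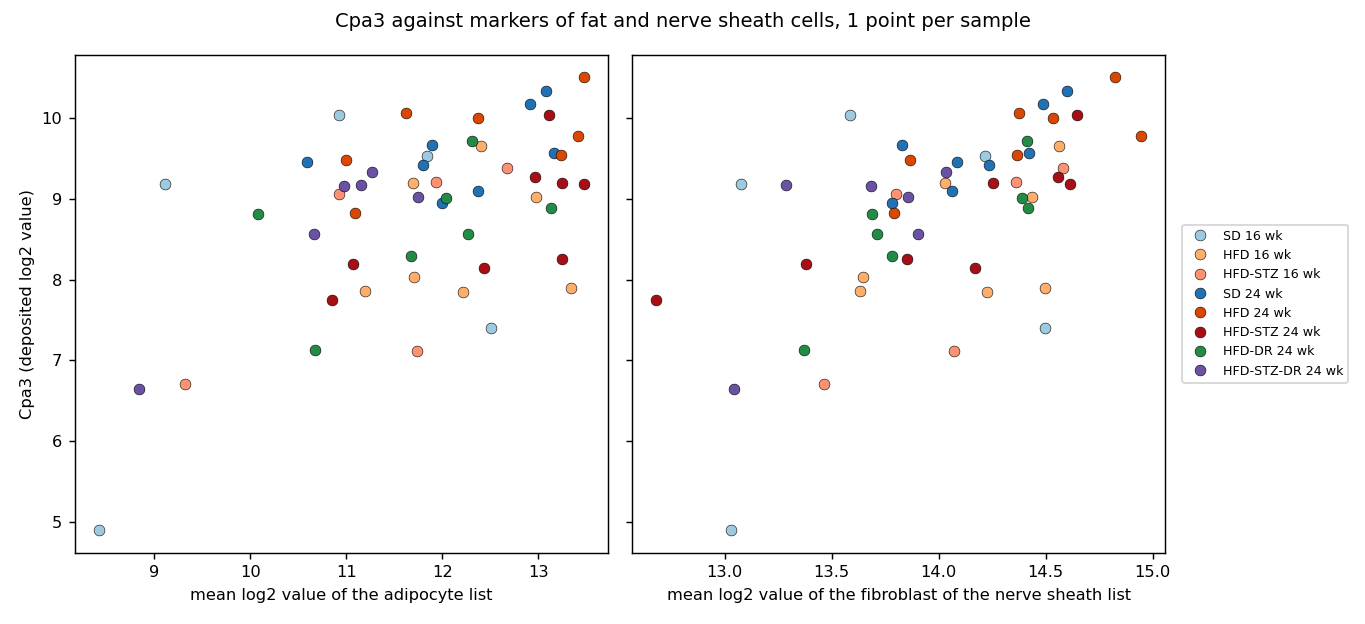
Cpa3 (y axis, deposited log2 value) against the mean log2 value of the adipocyte list (left) and of the nerve sheath fibroblast list (right), 1 point per sample coloured by group. SD 16-week replicate 1, at 4.90 on the y axis, has the lowest adipocyte mean (8.43), and Cpa3 is higher in nerves with more of both lists.

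The same lists are set beside the group differences. Adipocyte genes averaged 12.23 in SD, 12.32 in HFD and 12.55 in HFD-STZ nerves at 24 weeks, and 11.74 in HFD-DR and 10.78 in HFD-STZ-DR nerves. With the adipocyte mean as a covariate, the HFD-STZ minus SD difference was −0.97 for Cpa3 and −0.82 for Fcer1a, and HFD-DR minus HFD was −0.93 and −0.75. Fibroblast genes averaged 14.19 in SD, 14.39 in HFD and 14.02 in HFD-STZ nerves at 24 weeks, and 13.97 and 13.63 after reversal without and with STZ. Of these 4 genes Dpt moved most: it differed by 0.93 for HFD minus SD and by −1.38 for HFD-DR minus HFD, while Col1a1 was within 0.01 of 0 in both and Pdgfra at −0.12 and −0.07. With their mean as a covariate, HFD-STZ minus SD was −0.66 for Cpa3 and −0.65 for Fcer1a, and HFD-DR minus HFD was −0.60 and −0.64, against −1.11 and −0.94 without it. With Dpt left out of that mean, HFD-STZ minus SD was −0.41 (unadjusted p = 0.0971) and −0.52 (unadjusted p = 0.0666), and HFD-DR minus HFD −0.94 (unadjusted p = 0.00164) and −0.89 (unadjusted p = 0.00222). Of 6 macrophage genes 2 were lower in HFD-DR than in HFD nerves at an unadjusted p under 0.05, beside 4.57% of all genes (Cd68 −0.90, Adgre1 −0.60), and their list mean was 9.86 and 10.21. Muscle genes were higher in HFD-DR than in HFD nerves, with 5 of 6 at an unadjusted p under 0.05, beside 2.15% of all genes higher (Ckm 3.25, Tnni2 2.94, Acta1 2.90) and none past adjustment. With the muscle mean as a covariate, HFD-DR minus HFD was −1.27 for Cpa3 and −1.21 for Fcer1a. The part of tissue composition in these differences was not tested beyond these fits. With all 8 groups and the run of library numbers in 1 fit, HFD-STZ minus SD was −0.83 for Cpa3 and −0.74 for Fcer1a, and HFD-DR minus HFD −1.03 and −0.95.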

How the data were processed

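RNA-seq was run on 53 libraries of SCN in 8 groups of 5 to 8, grouped by the titles of the samples. Per the study's methods and the submitters' processing notes, the authors aligned reads to mm10 (GRCm38) with HISAT2, counted them with featureCounts and used DESeq2; versions are not given in the sources used here. The authors deposited 1 log2 value per gene and sample. Their normalization is not named, values below 0 occur, and whether differences of low genes were shrunk is unknown, so the depth of each library and count-based precision could not be computed.

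From these values, 2 groups at a time were compared with limma 3.58.1 (R 4.3.3; trend, Benjamini-Hochberg adjustment over all genes, threshold 0.05) among genes with a mean of at least 3.32 and no value above 22. This is a test of log2 values, not of counts. Exact 2-sided permutation tests of single genes and correlations used Python 3.11.15, numpy 2.4.6 and scipy 1.17.1. The exact permutation p-values were not adjusted over genes or comparisons. The limma step was tested on simulated data. Alternatives covered filters, centring, variance settings, covariates, runs of library numbers and leaving out each sample.

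The genes and lists were chosen with earlier results of these data known. All 8 members are named; of the other lists, genes past the adjusted threshold or among the 3 with the largest difference at an unadjusted p under 0.05 in HFD or HFD-STZ minus SD at 24 weeks or a reversal comparison, and paralogues; and the 15 genes most like the proteases. From each of 2 lists, of Schwann cells and of growth and activating factors, 1 gene was left out and is not reported here. Positions are from GENCODE M21.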

Additional observations from a re-analysis of the deposited data

Results flagged for a closer look

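Within-group outliers were looked for in each of the 8 genes in each of the 8 groups, 64 sets of values, by the gap of the lowest or highest sample to its neighbour; by chance about 1 in 20 sets is expected to be marked, and 7 values were. HFD-STZ-DR replicate 2 was lowest of its 6 samples for Cpa3 (6.64, next 8.57), Cma1 (6.10, next 8.25) and Tpsb2 (7.45, next 9.25). HFD-DR replicate 7 was lowest of 7 for Cma1 (6.80, next 8.50). HFD-STZ 24-week replicate 7 was highest of 8 for Kit (10.38, next 9.07) and lowest for Hdc (4.25, next 5.39). HFD 24-week replicate 5 was lowest of 7 for Ms4a2 (5.08, next 5.74).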

How the results depend on the processing

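The count of mast cell genes past the adjusted threshold (0 of 8 in each of the 14 comparisons and 3 tests of a difference between effects) stayed at 0 under the alternatives run, with 1 exception. In HFD at 24 minus 16 weeks it was 1 with the adipocyte mean as a covariate (Fcer1a, 0.93, adjusted p = 0.038, limma), and between 0 and 1 when each sample was left out (1 without HFD 24-week replicate 5: Ms4a2, 0.90, adjusted p = 0.0464). Over the other settings of that comparison the smallest adjusted p lay between 0.0974 and 0.835. The covariates of nerve sheath fibroblast genes, with and without Dpt, and of Schwann cell genes were added after the data were seen. Counts at an unadjusted p under 0.05 moved more: HFD-STZ minus SD at 24 weeks gave 6 genes, 3 with all 8 groups in 1 fit, 7 with the adipocyte mean and 2 with the fibroblast mean without Dpt. HFD-STZ-DR minus SD gave 5, 1 with the adipocyte mean and 0 with the fibroblast mean. HFD-STZ-DR minus HFD-STZ gave 0, and 5 with the adipocyte mean, all higher. HFD-DR minus SD gave 5 and 1 with all 8 groups in 1 fit, and HFD-STZ at 24 minus 16 weeks 0 and 3 with the fibroblast mean without Dpt. The limits set by depth were not examined, because no counts were used. The labels give no replicate numbers, and samples were not paired. Replicate numbers used here follow accession order. The main fits and the exact permutation tests had no term for run. Titles carry library numbers, and a fit with their runs as a term, beside all 8 groups, left the count past the adjusted threshold at 0.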
